A study of Mus musculus with 12 samples.

Results

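The 10 genes described here act in spermatogonia, the mitotic germ cells of the testis. They are Gfra1, Zbtb16, Id4, Nanos2, Nanos3, Lin28a and Sall4, which mark or maintain undifferentiated spermatogonia, and Kit, Sohlh1 and Sohlh2, which mark or drive the step to differentiating spermatogonia. They were chosen by symbol, and all 10 were found once among the 37675 Ensembl genes listed in every library, each as a protein coding gene of the mm9 annotation. The data come from whole testes of untreated mice of the inbred strain C57BL/6NHsd, taken at postnatal day (PND) 7, 14, 17, 21 and 28 from 2 mice at each of the 5 ages. After removal of ribosomal RNA the libraries were read on a SOLiD 4 instrument, and the files give each gene a read count and an RPKM, the count divided by the exon length of the gene and by the counted reads of the library. The question of the study was which transcripts change as the first wave of spermatogenesis adds meiotic and then haploid cells to the testis.

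Spermatogonial stem cells lie on the basement membrane of the seminiferous tubule among undifferentiated spermatogonia and depend on GDNF from Sertoli cells, which signals through the RET receptor and its co-receptor GFRA1. Retinoic acid moves undifferentiated cells into differentiation, when they take up the receptor KIT, whose ligand KITL also comes from Sertoli cells, and the basic helix-loop-helix factors SOHLH1 and SOHLH2. The differentiating cells divide several times and then enter meiosis as spermatocytes, so spermatogonia are a large share of germ cells early in the first wave and a small share of them later.

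The promoters of Sohlh1, Sohlh2 and Id4 are shown because their products act on the same short motif. SOHLH1 and SOHLH2 belong to the class of factors that bind the E-box, CANNTG, while ID4 is an inhibitor that pairs with such factors and has no DNA binding of its own. Each sequence is the 250 bases before the RefSeq start of the gene, read from the RefSeq promoter table (GRCm38.p6) and found letter for letter in mm9, and capitals mark every E-box. The Sohlh1 window is chr2:25702769-25703018 on the minus strand, the Sohlh2 window chr3:54985716-54985965 on the plus strand and the Id4 window chr13:48356235-48356484 on the plus strand, all in mm9. The Id4 window ends 311 bases before the gene start of the mm9 annotation, and the last 16 bases of the Sohlh2 window lie inside the gene there.
Sohlh1: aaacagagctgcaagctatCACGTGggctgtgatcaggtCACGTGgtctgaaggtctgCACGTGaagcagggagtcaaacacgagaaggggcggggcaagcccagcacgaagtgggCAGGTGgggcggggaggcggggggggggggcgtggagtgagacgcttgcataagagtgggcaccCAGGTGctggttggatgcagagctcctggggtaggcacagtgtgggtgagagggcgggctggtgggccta
Sohlh2: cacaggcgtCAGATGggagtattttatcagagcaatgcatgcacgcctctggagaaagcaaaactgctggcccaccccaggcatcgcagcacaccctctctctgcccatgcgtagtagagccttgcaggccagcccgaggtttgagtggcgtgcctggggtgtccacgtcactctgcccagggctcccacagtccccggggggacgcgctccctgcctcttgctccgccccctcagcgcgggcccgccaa
Id4: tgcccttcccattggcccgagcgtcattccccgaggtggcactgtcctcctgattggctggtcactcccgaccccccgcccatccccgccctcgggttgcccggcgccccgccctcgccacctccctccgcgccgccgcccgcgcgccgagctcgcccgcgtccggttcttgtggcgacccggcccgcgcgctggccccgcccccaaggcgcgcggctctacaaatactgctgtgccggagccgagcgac

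The Sohlh1 window held 5 E-boxes, of which 3 were the palindromic form CACGTG, and these 3 began 231, 211 and 192 bases before the start. Among 27025 promoters of the table searched over the same length and on both strands, 66.0% held at least 1 E-box, 1.18% held 5 or more, and 18 promoters held 3 or more copies of CACGTG. Sohlh2 had 1 E-box, CAGATG, and the Id4 window had none, as 34.0% of all promoters. Kit had 2 promoters in the table, and only the window nearest its gene start in the mm9 annotation is described (chr5:75970762-75971011, plus strand). This window had no E-box either. It is not printed because its last 71 bases lie inside the gene in that annotation. The GC box GGGCGG, found in 32.9% of all promoters, was matched 5 times in the Id4 window, 3 times in that of Sohlh1 and once each in those of Sohlh2 and Kit. CCAAT, found in 34.5% of promoters, was matched 2 times in the Id4 window and not in those of Sohlh1, Sohlh2 and Kit. Neither TATAAA (13% of promoters) nor the direct repeat of the retinoic acid response element (2 of the 27025 promoters) was matched in these windows. Of the 10 members, 8 had a promoter in the table, and Zbtb16 and Sall4 had none. These matches describe the letters only.

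Total counts ran from 3994026 (PND 17 mouse 2) to 13559548 (PND 17 mouse 1), with a median of 7103531, so low counts were less precise in the shallow libraries. PND 7 mouse 2 had counts in the fewest genes, 16616, at a total count of 7037654. PND 7 mouse 1 had counts in 19521 genes and PND 17 mouse 2, the shallowest, in 18986. A count of 0 allows up to 3 counts, between 0.209 and 0.725 CPM (the count scaled to a common library size) depending on the mouse, which covers counting error only. Mitochondrial genes took 37.3% of the counts of a mouse at most, at PND 7, and 15.1% at least, at PND 28. The 4 general germ cell genes (Ddx4, Dazl, Mael and Rnf17) summed to 276 and 194 RPKM in the PND 7 mice and to 1586 and 1381 RPKM in the PND 28 mice, while 7 Sertoli cell genes summed to 342 and 249 RPKM at PND 7 and to 104 and 117 RPKM at PND 28. Of 5 genes of peritubular myoid cells 3 were called lower at PND 28 than at PND 7, and of 5 macrophage genes none. Of all genes tested, 23.4% were called lower and 32.2% higher. With the Sertoli cell scaling described below, no myoid gene was called and 3 macrophage genes were called higher, as were 53.1% of all genes. Since the whole tissue was sequenced, fewer cells of a type and less RNA per cell cannot be told apart in any value below. In 5 spermatid genes (Acrv1, Tnp1, Tnp2, Prm1 and Prm2) PND 14 mouse 1 stood apart from its age. They summed to 434 RPKM in this mouse, against 16.1 in PND 14 mouse 2. The sums were 17.6 and 17.0 RPKM at PND 17 and 103 and 94.4 at PND 21. In the PND 7 mice 4 of these 5 genes had 0 counts and Tnp1 had 6 and 0. The calls at PND 14 against PND 7 are therefore also given without PND 14 mouse 1. Where nothing else is said, tests are edgeR's quasi-likelihood tests on the counts of all 10 mice after TMM scaling, and a gene was called changed at a Benjamini-Hochberg adjusted p under 0.05 over the 16860 genes tested with at least a 2-fold change. Of the 10 members, 9 passed edgeR's filter on low counts and Nanos2 did not.

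Over the whole span from PND 7 to PND 28, 6 of the 9 tested members were called, Id4 higher and Zbtb16, Lin28a, Sall4, Kit and Sohlh1 lower. Of all genes tested in that comparison, 32.2% were called higher and 23.4% lower, 55.6% in all, so a call by itself was common. In the test of any difference between the 5 ages, 7 of the 9 members were called, the same 6 and Sohlh2, against 57.5% of all genes. Gfra1 was called in none of these tests, and Nanos3 only from PND 7 to PND 28 when PND 28 mouse 1 was left out, which raised the number called to 7. The plot of RPKM by mouse shows 3 shapes, a rise after PND 7 in Id4, a step down between PND 17 and PND 21 in most others, and no ordered change in Gfra1.

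**Figure D1:**
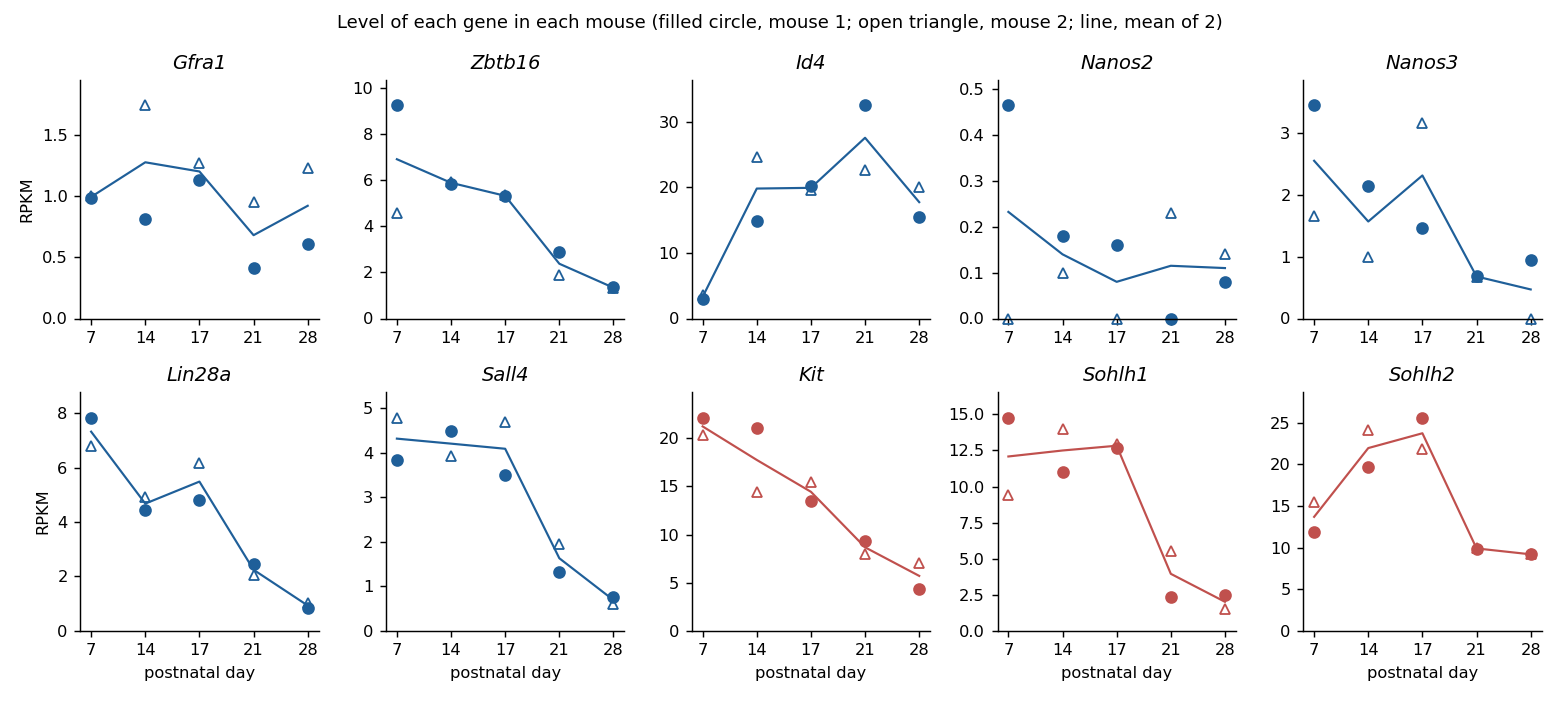
RPKM (vertical axes, each from 0 and on its own scale) of the 10 genes in each of the 10 mice against postnatal day (horizontal axes, ages evenly spaced), with undifferentiated genes in blue and differentiating genes in red. Filled circles are mouse 1, open triangles mouse 2 and lines the mean of both: Id4 lies at 3.04 and 3.56 RPKM at PND 7 and at 14.95 RPKM or more in every later mouse, while Lin28a, Sall4, Kit and Sohlh1 are lower at PND 28 than at PND 7 in both mice.

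Gfra1 (ENSMUSG00000025089, chr19:58310094-58530399, minus strand) encodes the receptor through which spermatogonial stem cells bind GDNF. Its level was 0.985 and 1.00 RPKM at PND 7, 0.81 and 1.74 at PND 14, 1.13 and 1.27 at PND 17, 0.41 and 0.95 at PND 21 and 0.61 and 1.23 at PND 28, from counts of 9 to 81 per mouse. The means fell in the order PND 14, 17, 7, 28 and 21, and of the neighbours in this order only PND 17 and PND 7 did not overlap. Between PND 28 and PND 7 the log2 fold change of Gfra1 was 0.23 (SE 0.58, 95% interval -1.04 to 1.51, adjusted p = 0.746), an interval that holds both a 2-fold fall and a 2-fold rise, and its sign changed with library totals as the scaling (-0.09). A gene of the opposite strand, Gm16277, overlaps Gfra1 with 0 to 29 counts, and whether the authors counted by strand is not given in the sources used here.

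Zbtb16 (ENSMUSG00000066687, chr9:48462416-48644050, minus strand) encodes PLZF, a zinc finger repressor needed for the upkeep of the stem cell pool. The PND 7 mice differed, with 9.245 and 4.57 RPKM, and the barcodes under which each of these mice was sequenced agreed better, with 9.64 and 8.85 RPKM in mouse 1 and 4.41 and 4.73 in mouse 2. Later values were 5.84 and 5.93 RPKM at PND 14, 5.30 and 5.34 at PND 17, 2.87 and 1.88 at PND 21 and 1.35 and 1.32 at PND 28. The means therefore followed age, and only the PND 7 and PND 14 mice overlapped among neighbours. Zbtb16 fell between PND 7 and PND 28 by 2.06 on the log2 scale (SE 0.36, adjusted p = 0.000593), and by 1.42 (adjusted p = 0.00312) without PND 7 mouse 1.

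Sall4 (ENSMUSG00000027547, chr2:168573832-168593443, minus strand) encodes a zinc finger factor that works with PLZF and marks spermatogonia. It was level over the first 3 ages, with 3.845 and 4.79 RPKM at PND 7, 4.48 and 3.93 at PND 14 and 3.49 and 4.69 at PND 17, and these ages overlapped one another. The PND 21 mice lay below all of them at 1.32 and 1.94 RPKM and the PND 28 mice lower again at 0.77 and 0.61. Sall4 fell by 2.32 on the log2 scale between PND 7 and PND 28 (SE 0.36, adjusted p = 0.000233). The opposite strand gene Gm14261 overlaps it with 0 to 7 counts.

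Id4 (ENSMUSG00000021379, chr13:48356796-48359405, plus strand) encodes an inhibitor of basic helix-loop-helix factors whose protein marks stem cells among spermatogonia, and it did not follow the others. The PND 7 mice had 3.04 and 3.56 RPKM, the PND 14 mice 14.95 and 24.72, the PND 17 mice 20.23 and 19.66, the PND 21 mice 32.54 and 22.63 and the PND 28 mice 15.42 and 20.10. PND 7 lay below every later mouse, PND 21 was highest by its mean, without overlap with PND 17 or PND 28 but overlapping PND 14, and PND 17, 14 and 28 overlapped as neighbours. Id4 was higher at PND 14 than at PND 7 by 2.47 on the log2 scale (SE 0.33, adjusted p = 0.000487), and by 2.80 without PND 14 mouse 1 (adjusted p = 0.000137). At PND 28 the log2 fold change over PND 7 was 2.71 (SE 0.34, adjusted p = 5.03e-05). Both calls held when the counts were scaled on Sertoli cell genes. The summed RPKM of 5 spermatocyte genes (Sycp1, Sycp3, Hormad1, Piwil1 and Spo11) moved in the same step, with 89.3 and 80.8 at PND 7 and 432 to 708 in the 8 later mice, and all 5 genes were called higher at PND 14, also without PND 14 mouse 1. Of all genes tested, 13.5% were called higher from PND 7 to PND 14. What part the spermatocytes had in the Id4 level was not tested. The opposite strand gene A330033J07Rik had 0 to 4 counts.

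Nanos2 and Nanos3 encode RNA-binding proteins of the germ line, of which NANOS2 is needed to keep stem cells in males and NANOS3 acts in the undifferentiated and early differentiating cells. Nanos2 (ENSMUSG00000051965, chr7:19572873-19574311, plus strand) was near the floor everywhere. Its counts were 7 and 0 at PND 7, 2 and 1 at PND 14, 3 and 0 at PND 17, 0 and 2 at PND 21 and 1 and 1 at PND 28, that is 0.465 RPKM at most. No fold change is given for it, since a difference was not detectable at this depth. Nanos3 (ENSMUSG00000056155, chr8:86697632-86700451, minus strand) had 3.45 and 1.655 RPKM at PND 7, 2.15 and 0.99 at PND 14, 1.46 and 3.17 at PND 17, 0.69 and 0.67 at PND 21 and 0.94 and 0 at PND 28. The first 3 ages overlapped one another, and so did PND 21 and PND 28, while PND 14 and PND 21 did not overlap. With 0 to 23 counts per mouse, its log2 fold change of -1.87 between PND 7 and PND 28 was not called (95% interval -4.10 to 0.36, adjusted p = 0.129).

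Lin28a (ENSMUSG00000050966, chr4:133559245-133574756, minus strand) encodes an RNA-binding protein that blocks the maturation of let-7 microRNAs and is found in undifferentiated spermatogonia. Its level was highest at PND 7 with 7.845 and 6.81 RPKM, without overlap with any later age. Values were 4.43 and 4.93 RPKM at PND 14 and 4.82 and 6.16 at PND 17, which overlapped, then 2.45 and 2.04 at PND 21 and 0.85 and 1.01 at PND 28. Lin28a had the largest fall of the 9 tested members between PND 7 and PND 28, by 2.67 on the log2 scale (SE 0.33, adjusted p = 4.73e-05).

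Kit (ENSMUSG00000005672, chr5:75970941-76052747, plus strand) encodes the receptor tyrosine kinase that defines differentiating spermatogonia. It had the highest RPKM of the 10 members at PND 7, with 22.155 and 20.325, followed by 21.07 and 14.44 at PND 14, 13.46 and 15.43 at PND 17, 9.35 and 8.0 at PND 21 and 4.33 and 7.08 at PND 28. The means declined with every age, and neighbouring ages overlapped up to PND 17 and not after it. Kit fell by 1.58 on the log2 scale between PND 7 and PND 28 (SE 0.27, adjusted p = 0.000441), with counts of 209 to 1221 per mouse. Kit is also made by mast cells and Leydig cells. The 5 mast cell genes (Cpa3, Cma1, Tpsb2, Mcpt4 and Fcer1a) summed to 2.36 and 5.81 RPKM at PND 7 and to at most 1.69 RPKM in later mice, with 1 to 5 of them at 0 counts in each mouse, and none of the 5 passed the filter. The 6 Leydig cell genes summed to 148 and 180 RPKM at PND 7, 112 and 207 at PND 21 and 581 and 456 at PND 28. Of the 6, 3 (Cyp11a1, Cyp17a1 and Insl3) were called higher at PND 28 than at PND 7, as were 32.2% of all genes. The part of either cell type in the Kit level was not tested. Haploid spermatids make a shorter Kit transcript, which counts per gene cannot separate.

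Sohlh1 (ENSMUSG00000059625, chr2:25698515-25702768, minus strand) encodes one of the paired factors that switch spermatogonia to differentiation and raise Kit. It was at 14.78 and 9.39 RPKM at PND 7, 11.04 and 13.96 at PND 14 and 12.70 and 12.96 at PND 17, all overlapping, and at 2.35 and 5.55 at PND 21 and 2.49 and 1.53 at PND 28, which overlapped each other. No mouse of the later pair of ages reached any mouse of the first 3. Its fall between PND 7 and PND 28 was by 2.23 on the log2 scale (SE 0.49, adjusted p = 0.00243). As with Zbtb16, PND 7 mouse 1 was the higher mouse under both of its barcodes, with 14.53 and 15.03 RPKM against 8.58 and 10.20 in mouse 2.

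Sohlh2 (ENSMUSG00000027794, chr3:54985950-55013879, plus strand), the partner of Sohlh1, had another course. Its level was 11.895 and 15.48 RPKM at PND 7, 19.72 and 24.18 at PND 14, 25.61 and 21.85 at PND 17, 9.82 and 9.97 at PND 21 and 9.18 and 9.19 at PND 28. PND 17 and PND 14 were highest and overlapped, and each other pair of neighbours in the order PND 14, 7, 21 and 28 was apart in RPKM. After TMM scaling the order of PND 21 and PND 28 was not kept, with a log2 fold change of 0.11 (SE 0.25, adjusted p = 0.833). The gain from PND 7 to PND 14 did not pass the test, with a log2 fold change of 0.58 (SE 0.24, adjusted p = 0.111). Over the whole span the log2 fold change of Sohlh2 was -0.26 (SE 0.25, 95% interval -0.81 to 0.29, adjusted p = 0.386), so that a 2-fold fall lay outside the interval on this scale.

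Between consecutive ages, members were called at the first and the third of the 4 steps. From PND 7 to PND 14, 1 of 9 tested members was called, Id4, where 18.9% of all genes were called. It was higher, as were 13.5% of all genes, and no member was called lower, against 5.43% of all genes. At an unadjusted p under 0.05, Lin28a (log2 fold change -0.76, adjusted p = 0.0833) and Sohlh2 were also included. Without PND 14 mouse 1 their log2 fold changes were -0.66 and 0.74, and Id4 was again the member called. DESeq2 and limma likewise called Id4 alone. Only Id4 had means 10 RPKM or more apart at this step, as limma's rule requires, so limma could call no other member. The signs of Gfra1, Zbtb16 and Sohlh1 at this step depended on a single mouse.

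From PND 14 to PND 17, edgeR called 0 of 9 members with or without PND 14 mouse 1, 0 at an unadjusted p under 0.05, and DESeq2 and limma also called 0. Of all 16860 genes edgeR called 0%, with 769 genes at an unadjusted p under 0.05, and DESeq2 called 1 gene and limma 4. No member had means 10 RPKM or more apart at this step, so limma could call none of them. The log2 fold changes of the members lay between -0.21 for Kit and 0.56 for Nanos3, and the 95% interval of Kit, the most counted member, was -0.78 to 0.36.

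From PND 17 to PND 21 the log2 fold changes of 8 of the 9 members were negative and that of Id4 positive. The median over all genes was 0.002, and the share of all genes with a negative sign is not given. Gfra1 (-0.61, SE 0.59), Nanos3 (-1.53, SE 1.07) and Id4 (0.57, SE 0.30) did not reach an unadjusted p under 0.05, so their signs are uncertain. Per Sertoli cell gene, where the median over all genes was 0.77, the values of Kit (0.16) and Gfra1 (0.06) turned positive. With TMM scaling, 3 members passed the test. These were Lin28a (log2 fold change -1.17, SE 0.31, adjusted p = 0.0348), Sall4 (-1.16, SE 0.34, adjusted p = 0.0493) and Sohlh2 (-1.14, SE 0.25, adjusted p = 0.0166). Of all genes 10.3% were called at this step, 1.05% lower and 9.29% higher. Zbtb16 (-1.07, adjusted p = 0.0768), Sohlh1 (-1.50, adjusted p = 0.0633) and Kit (-0.62, adjusted p = 0.150) were at an unadjusted p under 0.05 without passing the adjustment. In RPKM the PND 21 mice lay below both PND 17 mice for each of these 6 genes. The 6 were picked by their p in the same mice, so the lack of overlap is no further support. The number called depended on the mice in the fit. It was 0 without PND 17 mouse 1, without PND 17 mouse 2 or without PND 21 mouse 1, 1 (Sohlh2) without either PND 28 mouse, and 5 (with Zbtb16 and Sohlh1 added) without either PND 7 mouse. DESeq2 and limma each called Sohlh2 alone. Only Sohlh2 had means 10 RPKM or more apart at this step, so limma's rule could call no other member.

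From PND 21 to PND 28 edgeR called 0 of 9 members, and DESeq2 and limma 0 as well, where 7.66% of all genes were called, 0.297% lower and 7.37% higher. No member had means 10 RPKM or more apart at this step, so limma could call none of them. Lin28a (log2 fold change -1.04, SE 0.34, adjusted p = 0.0874) and Sall4 (-1.04, SE 0.37, adjusted p = 0.115) were the 2 members at an unadjusted p under 0.05. In both genes the PND 28 mice lay below the PND 21 mice in RPKM, which is no further support, since both were picked by their p at this step.

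**Figure D2:**
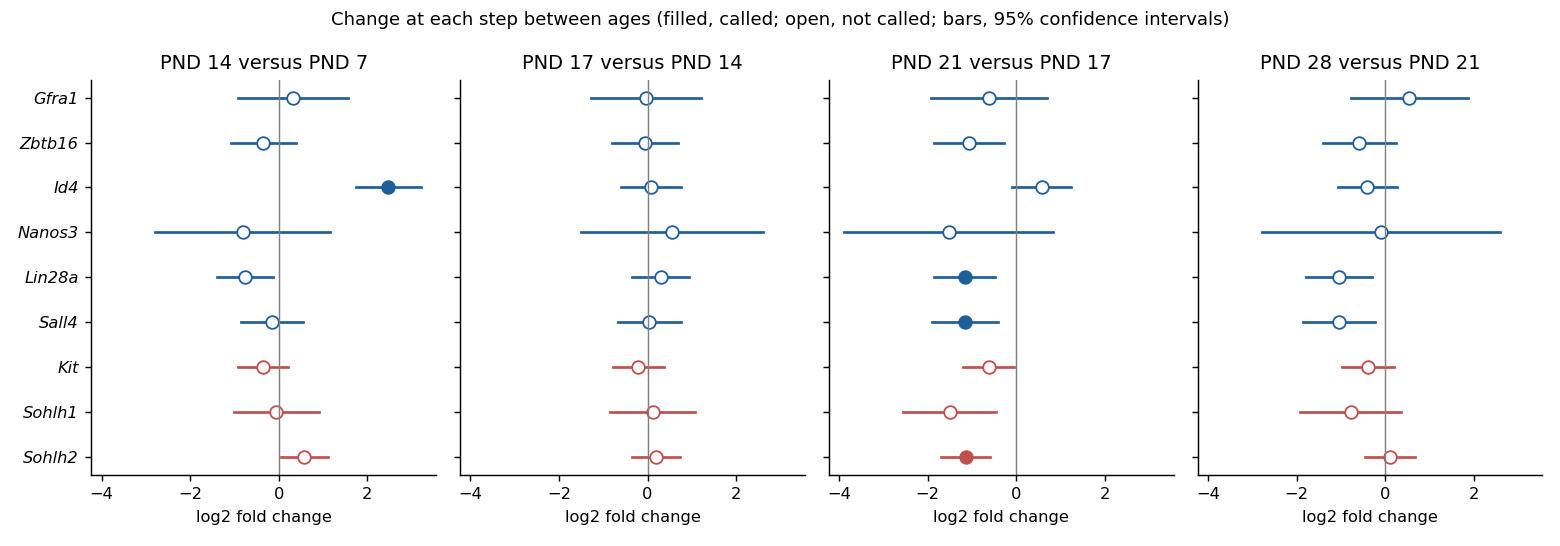
Log2 fold change of the 9 tested members (horizontal axes) at the 4 steps between consecutive ages, later over earlier age, with 95% confidence intervals as bars and filled circles for called genes. Id4 stands at 2.47 in the first step, all intervals of the second step hold 0, and Lin28a, Sall4 and Sohlh2 are filled between -1.17 and -1.14 in the third.

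The balance between members was followed in RPKM ratios within each mouse, which do not depend on the scaling of the library. The ratio of Kit to Id4 was 7.29 and 5.71 at PND 7, 1.41 and 0.584 at PND 14, 0.665 and 0.785 at PND 17, 0.287 and 0.354 at PND 21 and 0.281 and 0.352 at PND 28. Kit was thus the larger in both PND 7 mice and in 1 of the PND 14 mice, and Id4 in the other 7 mice. Against Zbtb16 the picture was different, and the ratio of Kit to Zbtb16 stayed between 2.40 and 5.36 in all 10 mice, and the PND 7 values, 2.40 and 4.45, were its lowest value and 1 of its higher values. The ratio of Id4 to Zbtb16 went from 0.329 and 0.779 at PND 7 to 11.4 and 15.2 at PND 28. Within the paired factors, the ratio of Sohlh2 to Sohlh1 was 0.805 and 1.65 at PND 7 and 3.69 and 6.01 at PND 28, while PND 21 mouse 2 at 1.80 lay among the younger mice. No test of the ratios is given, with 2 mice at an age.

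**Figure D3:**
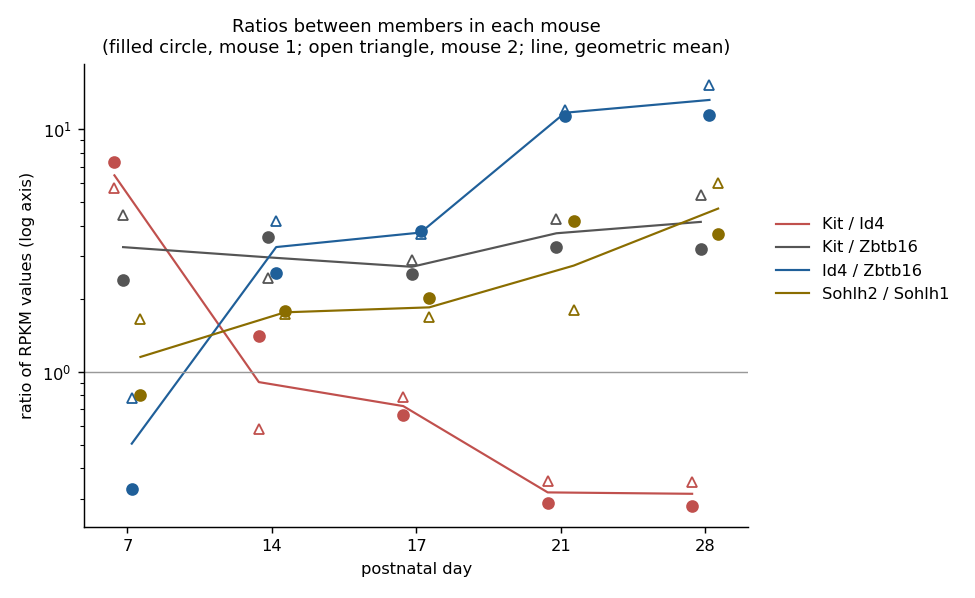
Ratio of the RPKM values of pairs of members in each mouse (vertical axis, log scale) against postnatal day, with filled circles for mouse 1, open triangles for mouse 2 and lines through the geometric means. Kit/Id4 goes from 7.29 and 5.71 at PND 7 to 0.281 and 0.352 at PND 28, and Kit/Zbtb16 stays between 2.40 and 5.36.

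The 3 differentiating members summed to 48.8 and 45.2 RPKM at PND 7, between 50.2 and 52.6 RPKM at PND 14 and PND 17, 21.5 and 23.5 at PND 21 and 16.0 and 17.8 at PND 28. The 7 undifferentiated members together showed no such step, with 40.3 and 30.3 RPKM at PND 21 against 36.6 and 40.3 at PND 17. Without Id4, however, they summed to 25.8 and 18.8 RPKM at PND 7, 17.9 and 17.6 at PND 14, 16.4 and 20.6 at PND 17, 7.74 and 7.71 at PND 21 and 4.6 and 4.31 at PND 28. Both the sum without Id4 and the sum of the differentiating members were lower in each PND 21 mouse than in each PND 17 mouse, while the sum with Id4 overlapped between these ages. Id4 was left out with its rise in these same data known, so the sum without it is a description and no test of the class. The sums do not describe each gene, since Gfra1 had no ordered change and the mean of Kit was lower at each age than at the one before. In the summed RPKM of all 10 genes, Id4 took 3.91% and 5.27% at PND 7 and 42.8% and 47.6% at PND 28, while Kit took 28.5% and 30.1% at PND 7 and 12% and 16.8% at PND 28. By mean RPKM, Kit ranked 1 and Id4 ranked 7 among the 10 members at PND 7, Sohlh2 led at PND 14 and PND 17, and Id4 led at PND 21 and PND 28.

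**Figure D4:**
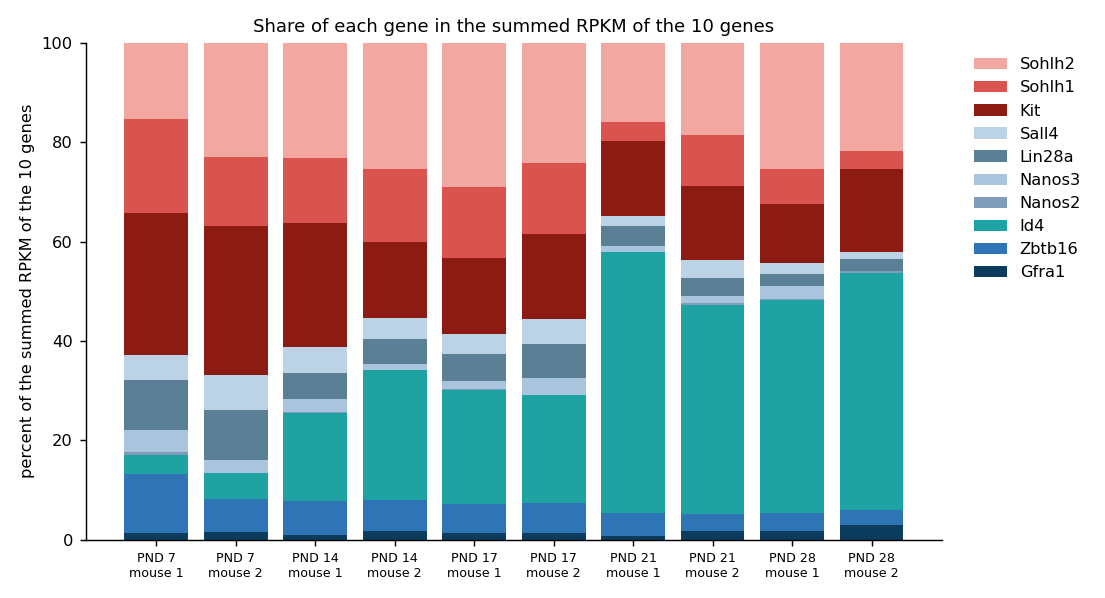
Percent of the summed RPKM of the 10 genes taken by each gene (vertical axis, stacked from 0 to 100) in each of the 10 mice. The Id4 band widens from 3.91% and 5.27% in the PND 7 mice to 42.8% and 47.6% in the PND 28 mice, and the Kit band narrows.

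These changes are relative to all RNA of the testis, whose makeup changed with age. As a second reference, library sizes were set to the summed counts of 6 Sertoli cell genes (Wt1, Sox9, Fshr, Cldn11, Inha and Gata1), cells that stop dividing in the young testis. This moved the log2 fold changes between PND 7 and PND 28 by a median of 1.2 over the genes tested on both scales, and the members' values moved too. On this scale Id4 (log2 fold change 3.90, adjusted p = 1.67e-06) was again higher and Lin28a (-1.46, adjusted p = 0.00858) and Sall4 (-1.13, adjusted p = 0.0317) again lower at PND 28, where 53.1% of all genes were called higher and 5.95% lower. Kit (-0.38, adjusted p = 0.363), Zbtb16 (-0.80, adjusted p = 0.120) and Sohlh1 (-0.98, adjusted p = 0.110) were no longer called. The values of Gfra1 (1.41, adjusted p = 0.0533) and Sohlh2 (0.92, adjusted p = 0.0549) were positive without passing the test. Between PND 17 and PND 21 none of the 3 calls above held per Sertoli cell gene, with -0.39 for Lin28a, -0.44 for Sall4 and -0.40 for Sohlh2, and Id4 was called higher instead (1.36, adjusted p = 0.0277), where 25.5% of all genes were called higher and 0.104% lower. The Sertoli cell genes themselves differed among each other, and Gata1 was called higher at PND 14 than at PND 7 (log2 fold change 1.14, adjusted p = 0.0209, and 0.71, not called, without PND 14 mouse 1) while Sox9 fell by 3.13 on the log2 scale over the whole span.

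**Figure D5:**
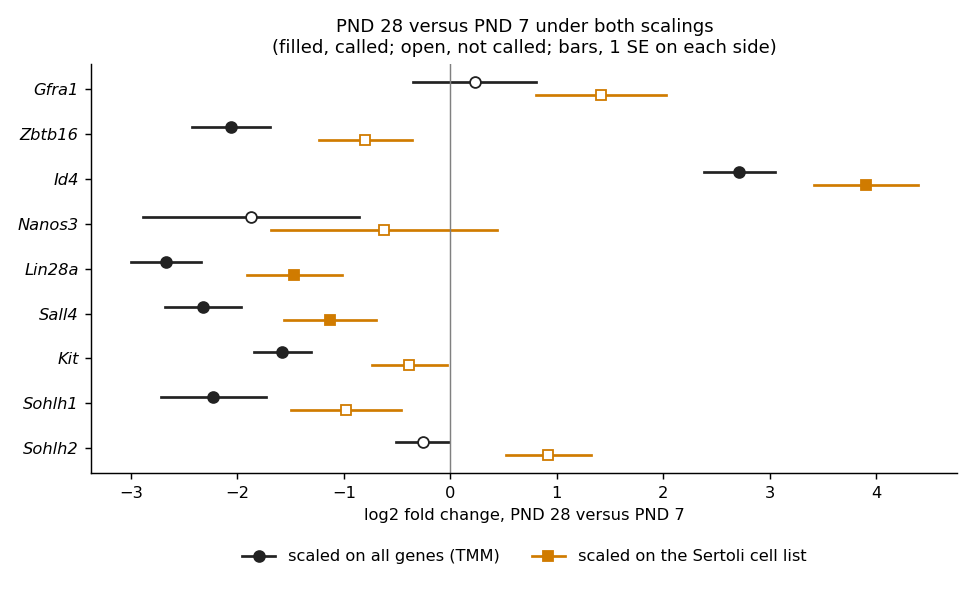
Log2 fold change between PND 7 and PND 28 (horizontal axis, later over earlier age, bars 1 SE on each side) of the 9 tested members with the counts scaled on all genes (black circles) or on 6 Sertoli cell genes (orange squares), filled where called. Id4, Lin28a and Sall4 are filled on both scales, Zbtb16, Kit and Sohlh1 on the first only, and Sohlh2 goes from -0.26 to 0.92.

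The ligands and partners of the members were taken from lists of symbols. Gdnf, the ligand of GFRA1, had 2.80 and 5.11 RPKM at PND 7 and 0.52 and 0 at PND 28, and fell by 3.36 on the log2 scale (SE 0.88, adjusted p = 0.00655). Kitl, the ligand of KIT, had 58.3 and 54.6 RPKM at PND 7, 33.5 and 30.2 at PND 14 and 10.2 and 11.5 at PND 28, and fell by 2.05 on the log2 scale (SE 0.21, adjusted p = 1.23e-05). Per Sertoli cell gene the fall of Gdnf was called (log2 fold change -2.20, adjusted p = 0.0320) and that of Kitl was not (-0.85, adjusted p = 0.0626). Of 9 genes of the GDNF receptor and its response, 7 were tested, and between PND 7 and PND 28 none was called higher and 3 lower, with a median log2 fold change of -1.69 against 0.10 over all genes, of which 32.2% were called higher and 23.4% lower. The 3 were Ret, the signalling receptor that GFRA1 binds (-2.62, SE 0.60), and Dusp6 (-1.69) and Spry4 (-2.37), feedback inhibitors of the kinase cascade below it. Ret alone of these was also called per Sertoli cell gene (-1.45). On that scale Etv5, a factor induced by GDNF that was named after its values were seen, was called higher (2.19, adjusted p = 0.0137), and the median was -0.48 against 1.40 over all genes. The PND 7 mice differed widely in Etv5, with 65 and 2 counts (1.70 and 0.06 RPKM). At PND 28 it had 1.32 and 1.30 RPKM, so PND 7 mouse 1 lay above both PND 28 mice in RPKM. With TMM scaling no gene of this list was called in a step between consecutive ages. Per Sertoli cell gene, Lhx1 of this list was called higher from PND 21 to PND 28 (log2 fold change 7.34, adjusted p = 0.0217). This call rests on few reads, since Lhx1 had 0 counts at PND 21 and at most 13 at PND 28.

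Among 14 other genes of undifferentiated spermatogonia, 11 were tested, and 6 fell and 1 rose between PND 7 and PND 28, with a median of -2.05, against the same shares of all genes, 23.4% lower and 32.2% higher. The 1 that rose was Bmi1, from 12.345 and 10.25 RPKM at PND 7 to 21.7 and 26.09 at PND 28. The 4 with the largest change were Cdh1 (E-cadherin, log2 fold change -3.31), Piwil4 (a PIWI protein that binds piRNAs, -3.14), Neurog3 (a basic helix-loop-helix factor of early progenitors, -2.24) and Upp1 (uridine phosphorylase, -2.22). All 4 had means of 7.74 CPM or less at PND 7, and per Sertoli cell gene Cdh1 and Piwil4 held their calls and the other 2 did not. On that scale 3 genes of the list (Bmi1, Taf4b and Tspan8) were called higher and 2 lower, against 53.1% and 5.95% of all genes. Neurog3 was also called lower from PND 17 to PND 21 (log2 fold change -3.09, SE 0.87, adjusted p = 0.0445), the step at which Lin28a, Sall4 and Sohlh2 were called, and like theirs this call did not hold per Sertoli cell gene (-2.39, adjusted p = 0.102). Its RPKM was 1.63 and 2.17 at PND 17 and 0.16 and 0.21 at PND 21. From PND 21 to PND 28, Foxo1, a forkhead factor of the stem cell pool, was called lower (-1.26, SE 0.33, adjusted p = 0.0394), a call that did not hold per Sertoli cell gene (-0.77).

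Of 7 other genes of differentiating spermatogonia, all tested, 4 fell and 1 rose between PND 7 and PND 28 (23.4% and 32.2% of all genes), with a median of -1.21. Stra8, the retinoic acid target needed for entry into meiosis, had 40.1 and 41.0 RPKM at PND 7, 52.1 and 39.7 at PND 14, 38.0 and 46.4 at PND 17 and 10.9 and 16.8 at PND 21. It fell by 1.45 on the log2 scale from PND 17 to PND 21 (SE 0.29, adjusted p = 0.0114), the same step as the members, and this call too was absent per Sertoli cell gene (-0.73, adjusted p = 0.143). Elavl2 was called lower at that step as well (-1.12, adjusted p = 0.0246), and not per Sertoli cell gene (-0.38, adjusted p = 0.517). Ccnd2, the cyclin of differentiating spermatogonia, fell earlier, by 1.76 on the log2 scale between PND 7 and PND 14 (SE 0.26, adjusted p = 0.000785, and by 1.99 without PND 14 mouse 1) and by 3.19 over the whole span. Dnmt3b, a DNA methyltransferase, fell by 2.33 over that span, and Ccnd2 and Dnmt3b also held their calls per Sertoli cell gene (-1.99 and -1.11). Dmrtb1, which controls the step from mitosis to meiosis, rose instead, from 6.81 and 4.04 RPKM at PND 7 to 190 and 139 RPKM at PND 28 (log2 fold change 5.27, SE 0.43, adjusted p = 2.99e-06).

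Relatives of the members from the same gene families were compared as well, and all 12 listed were called between PND 7 and PND 28, 4 higher and 8 lower, where 32.2% of all genes were called higher and 23.4% lower. Per Sertoli cell gene 4 were called higher and 3 lower, against 53.1% and 5.95% of all genes. The largest values were those of Gfra2 (log2 fold change 4.74), Sall1 (-4.58), Gfra3 (-3.89) and Gfra4 (3.56), so the relatives of Gfra1 went both ways while Gfra1 itself was not called. Per Sertoli cell gene the fall of Gfra3 was not called (-2.80, adjusted p = 0.072), while Gfra2, Gfra4 and Sall1 were. At PND 28 Gfra3 had 0 and 2 counts and Sall1 had 1 and 2. From PND 7 to PND 14, Gfra4 (1.83) and Zbtb32 (2.01), a relative of Zbtb16, were called higher, and both calls held without PND 14 mouse 1. Gfra2 had 0.30 and 0 RPKM at PND 7 and 4.02 and 3.20 at PND 28, and Gfra4 had 0.96 and 0.50 at PND 7 and 9.23 and 5.84 at PND 28. Id1, Id2 and Id3, chosen here after their values were seen, all fell over the span in which Id4 was higher, by 2.28, 2.30 and 2.18 on the log2 scale. Id2 had 17.6 and 24.9 RPKM at PND 7 and 2.80 and 4.2 at PND 28. Per Sertoli cell gene only the fall of Id2 was called (-1.13, adjusted p = 0.0372), with -1.11 for Id1 and -1.04 for Id3. The difference between Id4 and its relatives was not tested.

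Patterns over the 10 mice were compared as Pearson's r of log2(CPM + 1), given as a description because mice of an age share their cell makeup. Lin28a and Sall4 (r = 0.941), Sall4 and Sohlh1 (r = 0.944), Zbtb16 and Lin28a (r = 0.936) and Lin28a and Kit (r = 0.926) were close, and Gfra1 was at most 0.497 with any other tested member. Id4 was at -0.70 with Kit and at 0.012 with Sohlh2. Among 14899 tested protein coding genes, the nearest to Id4 were Lcorl (r = 0.995), Atr and Nr2c2, and the nearest to Kit were Rnf213 (r = 0.993), Prep and Zfp275. For Sohlh1 they were Galnt2 (r = 0.992), Gm20388 and Fermt2, and for Sohlh2 Chmp7 (r = 0.951), Gbp3 and Mcm8. Zbtb16 was nearest to Yipf6 (r = 0.981), Rcbtb1 and Zfp790, Lin28a to Rpp40 (r = 0.988), Syap1 and Met, and Sall4 to Map2k4 (r = 0.990), Dcaf4 and Fzd7. Nanos3 was nearest to Mtmr11 (r = 0.937), Podn and Vipr1. For Gfra1 the best match was lower, Yars2 at r = 0.867, followed by Angptl7 and Gm12353. Each best match is the highest of 14899 values over 10 mice, and no baseline for such a maximum was computed. Gfra1 and Nanos3, not called in the test of any difference between the ages, have such matches too.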

How the data were processed

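Whole testes of 10 mice, 2 at each of 5 ages, were studied. The authors aligned 50 bp SOLiD 4 reads to mm9 with LifeScope and, leaving out ribosomal, transfer RNA and repeat reads and those with more than 10 alignments, deposited for each Ensembl gene the raw count of reads aligned uniquely within it. The authors also deposited an RPKM, the count divided by exon length and by the counted reads of the library. Such division leaves differences in library composition in place. The PND 7 mice each had 2 barcodes. Here the 2 counts were added and the mean of the 2 RPKM values was taken, so n counts mice. That the 2 mice of an age are separate animals comes from the study's methods.

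Counts were tested with edgeR 4.0.16 in R 4.3.3 (TMM scaling, filterByExpr, quasi-likelihood fit over all 10 mice, common dispersion 0.0726), with at least a 2-fold change and a Benjamini-Hochberg adjusted p under 0.05. DESeq2 1.42.0 and limma 3.58.1 on log2(RPKM + 1) were alternatives, the latter with the thresholds of the study's methods (p to 0.01 without adjustment, a change of 2-fold or more, and means 10 RPKM or more apart). Other alternatives were other scalings, filters, subsets of mice, separate barcodes and a block on mouse number. For a count of 0 an upper bound of 3 counts was stated for each mouse, and no 0 was replaced before testing. Symbols came from GENCODE M1, which matched 37310 of the 37675 genes, and the other 365 had 0 counts. Of 97 listed symbols 96 were found (Rhox5 was not). Promoters came from RefSeq (GRCm38.p6) and were located in mm9 by sequence. Each list is given as counts, with the called genes of largest change named, at most 4 per list and comparison, and each member with its 3 nearest genes. The members and lists were chosen with earlier results of these data known. Scripts were tested on simulated data. Figures were made with matplotlib 3.10.9 in Python 3.11.15.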

Additional observations from a re-analysis of the deposited data

How the results depend on the processing

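In 22 alternatives the number of members called stayed at 1 from PND 7 to PND 14 and at 0 from PND 14 to PND 17 and from PND 21 to PND 28. From PND 17 to PND 21 it was 3 and became 1 under Sertoli cell scaling (Id4, higher, with all 3 falls lost), 1 under DESeq2 or limma (Sohlh2), 5 without a filter on low counts, and 0 to 5 when each mouse was left out in turn. From PND 7 to PND 28 it was 6 and became 3 under Sertoli cell scaling (Id4, Lin28a and Sall4) and 3 under limma (Id4, Kit and Sohlh1), and 6 to 7 when each mouse was left out. Zbtb16, Lin28a and Sall4 stayed under 10 RPKM in every mouse, so limma's rule of means 10 RPKM or more apart could not call them at any step. Any difference between the ages was called for 7 members, and for 1 (Id4) under Sertoli cell scaling. From PND 7 to PND 14 the log2 fold change of Gfra1 (0.32) was -0.41 to 0.78, that of Zbtb16 (-0.35) -0.77 to 0.31 and that of Sohlh1 (-0.06) -0.34 to 0.34 when a mouse was left out, and Sohlh1 was 0.03 with library totals and 0.07 with limma. From PND 7 to PND 28 Gfra1 (0.23) was -0.09 with library totals, -0.07 with limma and -0.30 to 0.68 when a mouse was left out, and Sohlh2 (-0.26) was 0.92 under Sertoli cell scaling. The cause was not tested. With mouse number as a replicate block, 2 members were called from PND 17 to PND 21 (Sall4 was lost) and 6 from PND 7 to PND 28. Deviations of the mice numbered 1 correlated between ages with r from -0.253 to 0.398, over 0.1 in 2 of 10 pairs of ages, so the numbers do not pair the mice. With 2 mice per age no value was tested as an outlier, and depth limits Nanos2 and Nanos3, with at most 7 and 23 counts.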
